A study of Mus musculus with 10 samples.

Results

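The 9 interferon-stimulated genes described here are Isg15, Ifit1, Ifit2, Ifit3, Irf1, Irf7, Stat2, Rsad2 and Usp18, taken by their symbols from a table of 23234 gene symbols in mouse ovarian follicle cells. All 9 were in the table. RNA was sequenced from 10 libraries in 5 groups, and levels are FPKM, which counts fragments per unit of transcript length and of sequencing depth. C57BL/6 mice gave 8 of them: 3 of cumulus cells (the granulosa cells around the oocyte) at 2 months of age, 3 of cumulus cells at 10 months, and 2 of mural granulosa cells (those of the follicle wall) at 2 months. The other 2 are whole cumulus-oocyte complexes of mice aged 3 weeks and primed with the gonadotropin PMSG, 1 from the inbred strain DBA/2 and 1 from the hybrid BDF1. One protocol text, the same for every sample, speaks of MGCs from mice primed with eCG, another name for PMSG, and of a basic culture medium with milrinone, a phosphodiesterase inhibitor. The labels do not say whether cumulus donors were primed, how many animals went into a library, or whether replicates were separate animals, so p-values here reflect library-to-library spread that may be technical.

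Interferons are secreted proteins that warn cells of viral nucleic acid. Type I interferons bind the receptor made of Ifnar1 and Ifnar2, the kinases Jak1 and Tyk2 phosphorylate STAT proteins, among them Stat2, and a complex that holds Stat2 and Irf9 binds the interferon-stimulated response element (ISRE) in target promoters. Interferon gamma acts instead through the gamma-activated site (GAS), with Irf1 as an early target. Among the targets, Isg15 is a ubiquitin-like protein that is attached to other proteins, and Usp18 removes it and also dampens the type I receptor. The Ifit proteins bind foreign RNA, Rsad2 (viperin) is a radical SAM enzyme that makes a chain-terminating nucleotide, and Irf7 is the factor that amplifies type I interferon transcription.

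Promoters are shown for the 5 members with a match to one of these elements close before the start site, and for Irf7, a regulator whose window has none. RefSeq promoter sequence of build GRCm38.p6 was matched for 8 of the 9 members, at 10 start sites. Each run below is the 160 bases before the start site, 5′ to 3′ on the gene's strand, and capitals mark matches to the ISRE letters (GAAA, any 2 bases, GAAA, on either strand) or to the palindromic GAS letters (TTC, any 3 bases, GAA). Isg15 (chr4:156200819-156200978, minus strand) carries 3 overlapping ISRE matches, the first starting 78 bases before the start site. Ifit1 (chr19:34640729-34640888, plus strand) and Ifit3 (chr19:34583369-34583528, plus strand) carry 2 matches each. Rsad2 (chr12:26456453-26456612, minus strand) carries 1 ISRE match, and Irf1 (chr11:53769854-53770013, plus strand) 1 GAS match. Irf7 (chr7:141266425-141266584, minus strand) has no match and is all in lower case.
Isg15: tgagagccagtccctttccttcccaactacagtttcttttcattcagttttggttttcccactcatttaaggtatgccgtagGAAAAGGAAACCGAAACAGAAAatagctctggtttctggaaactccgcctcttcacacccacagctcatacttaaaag
Ifit1: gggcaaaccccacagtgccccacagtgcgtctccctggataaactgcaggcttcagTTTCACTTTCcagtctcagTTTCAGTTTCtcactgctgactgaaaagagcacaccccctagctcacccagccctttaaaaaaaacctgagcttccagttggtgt
Ifit3: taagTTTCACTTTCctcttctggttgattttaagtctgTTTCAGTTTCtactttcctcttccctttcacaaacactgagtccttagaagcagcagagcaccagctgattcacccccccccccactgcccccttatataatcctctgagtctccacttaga
Rsad2: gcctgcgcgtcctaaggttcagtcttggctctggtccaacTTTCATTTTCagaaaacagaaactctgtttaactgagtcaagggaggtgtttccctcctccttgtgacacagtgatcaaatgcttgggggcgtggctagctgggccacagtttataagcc
Irf1: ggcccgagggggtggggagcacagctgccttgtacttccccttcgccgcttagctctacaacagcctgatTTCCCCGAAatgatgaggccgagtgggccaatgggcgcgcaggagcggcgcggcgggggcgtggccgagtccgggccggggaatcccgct
Irf7: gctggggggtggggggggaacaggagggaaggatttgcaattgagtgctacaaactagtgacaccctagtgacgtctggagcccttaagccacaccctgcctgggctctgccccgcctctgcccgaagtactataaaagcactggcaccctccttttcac

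Over the table's full window of 250 bases before to 50 after a start site, 5 of the 8 matched members held an ISRE match (Isg15, Ifit1, Ifit3, Rsad2 and Stat2, the last starting 222 bases before its start site). Such a match was present in 3.44% of 32851 mouse promoters, which belong to 27025 symbols. The members are counted by gene, with a match at any start site, and the share is by promoter, so these are not like counts. A GAS match was present at 1 of the 2 start sites of Irf1 and 1 of the 2 of Ifit2, and in 8.30% of all promoters. These letters were not in the Irf7 window. Across the libraries, Irf7, with no match, varied with the effectors, and Stat2, with a match, did not. A match is a description of sequence, and binding was not measured.

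Levels differed widely among the members. Since FPKM is scaled by length, genes can be compared: Irf1 (10.6 to 90.5 FPKM over the 10 libraries) and Stat2 (8.98 to 15.0) were the most abundant, and Irf7 followed at 1.56 to 11.8. The effector genes were low in most libraries, and Isg15, Ifit1, Ifit2, Ifit3, Rsad2 and Usp18 were each listed at 0 in at least 1 library. Read depth is unknown, and so is the counting error of values under 1 FPKM. Of Ifit3's stretches of 50 transcript bases in GENCODE M21, 51.2% also occur in its neighbour Ifit3b, so Ifit3 is uncertain. Ifit3b, under its older symbol I830012O16Rik, stood at 1.14, 0.495 and 5.02 FPKM in the 10-month libraries and at 0.355, 0.281 and 0.373 at 2 months, a pattern like that of Ifit3. Irf1 shared 1.24% and Usp18 2.81% of such stretches with antisense genes, whose reads cannot be told apart without strand.

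**Figure D1:**
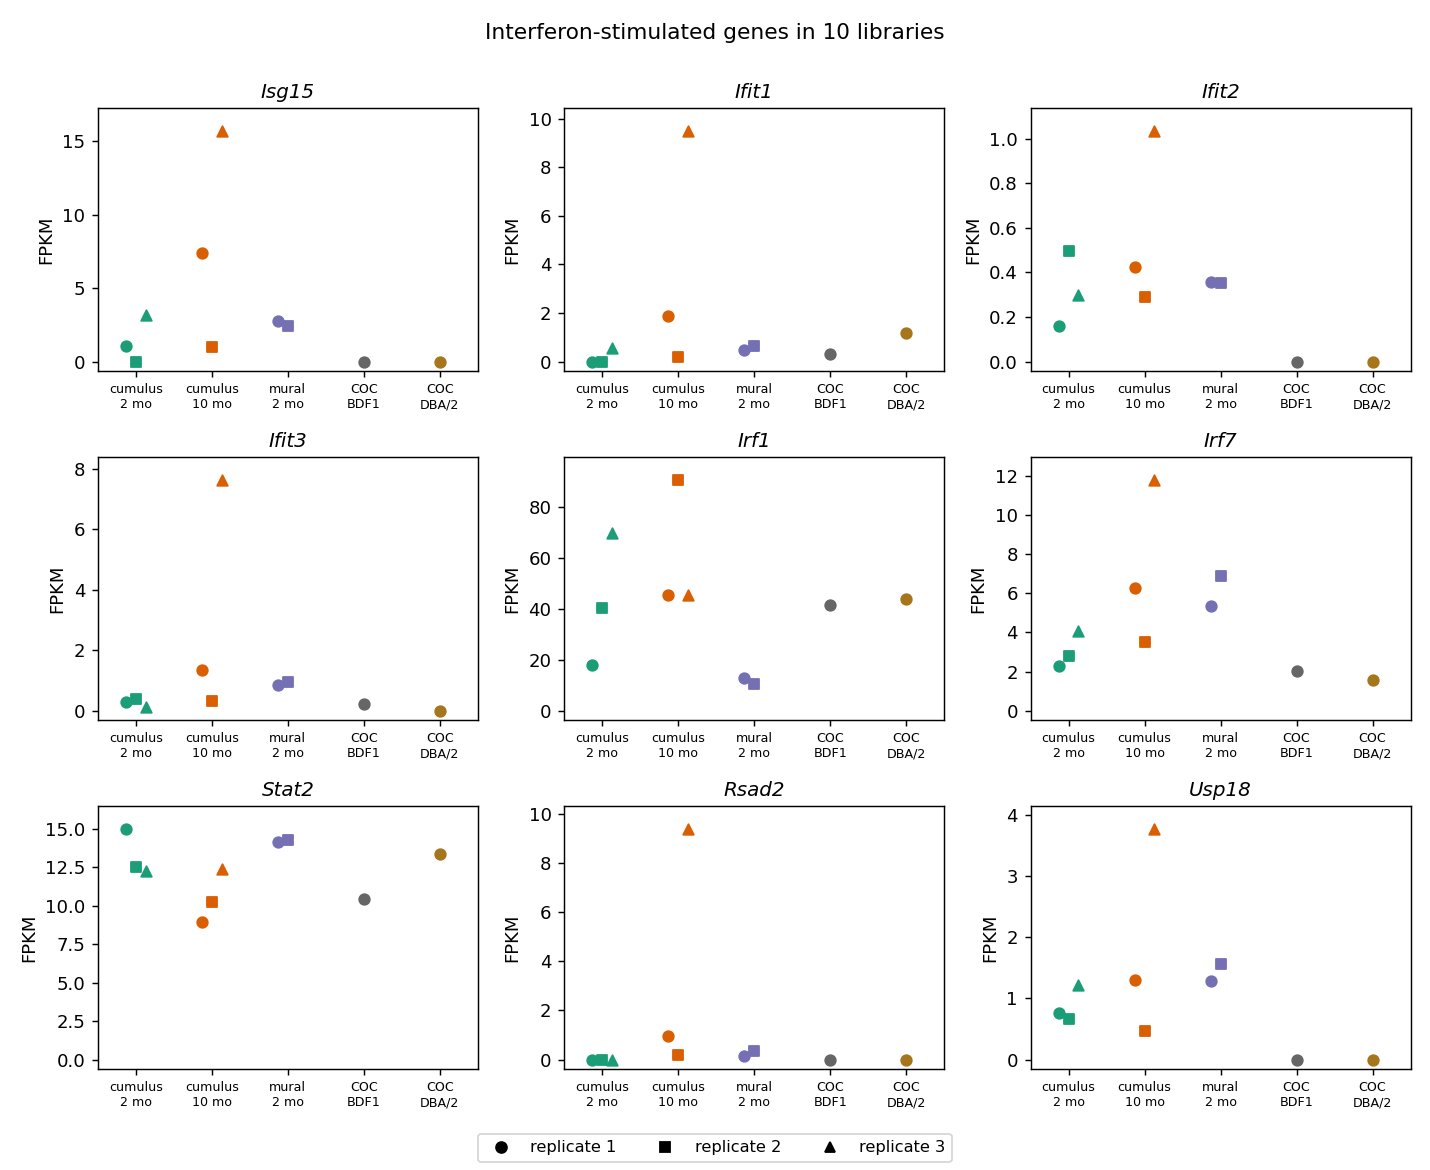
FPKM of the 9 genes (vertical axes, 1 scale per gene) in each of the 10 libraries (points, replicate by symbol), grouped on the horizontal axis by cell type, age or strain. Replicate 3 of cumulus cells at 10 months is the highest point in all panels except Irf1 and Stat2, with 15.7 FPKM for Isg15 and 9.36 FPKM for Rsad2.

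Granulosa markers had list medians of 6.60 to 7.25 on the log2(FPKM + 1) scale in all 10 libraries, and oocyte genes 7.5 and 7.66 in the complexes. Oocyte genes were uneven in cumulus cells, from 0.00 to 6.59. Replicate 3 of cumulus cells at 10 months stood apart in markers of other cells. Its medians of mural granulosa (5.38), surface epithelium (3.33), endothelial (2.16) and erythroid markers (3.10) were each above those of the other 5 cumulus libraries. These reached 4.05, 1.63, 0.87 and 0.27. The age differences of the members are therefore given with and without this library. In bulk RNA, fewer cells of a type and less RNA per cell cannot be told apart.

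The first comparison describes how cumulus cells differ between 10 and 2 months of age. The interferon-stimulated effector genes were highest in 1 of the 3 libraries at 10 months, intermediate in the second and near the 2-month level in the third. None of the 8 tested members passed the test for age. Isg15 stood at 7.39, 0.988 and 15.7 FPKM in replicates 1, 2 and 3 at 10 months, and at 1.07, 0 and 3.17 in replicates 1, 2 and 3 at 2 months. Replicates 1 and 3 at 10 months lay above all 2-month libraries and replicate 2 lay among them. The fitted difference in log2(FPKM + 1) was 1.67 ± 0.79 (SE; limma with Benjamini-Hochberg adjustment over 12412 genes, adjusted p = 0.398), and 0.99 without replicate 3 at 10 months, with the same genes kept here and for the other members (adjusted p = 0.675).

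The RNA-binding Ifit genes followed the same order. Ifit1 stood at 1.86, 0.174 and 9.48 FPKM at 10 months and was listed at 0 in replicates 1 and 2 at 2 months, with 0.545 in replicate 3. Ifit3 stood at 1.34, 0.328 and 7.62 FPKM at 10 months and at 0.297, 0.369 and 0.113 at 2 months. In both genes the groups overlapped through replicate 2 at 10 months, which lay within the 2-month range. The limma adjusted p was 0.395 for Ifit1 (fitted difference 1.5) and 0.410 for Ifit3 (1.25). Without replicate 3 at 10 months the differences were 0.67 and 0.49. Ifit2 was scarce throughout, at 0.424, 0.291 and 1.03 FPKM at 10 months and 0.158, 0.498 and 0.298 at 2 months. Its mean over the 8 C57BL/6 libraries was below the 1 FPKM needed to be tested.

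Rsad2 was listed at 0 in all 3 libraries at 2 months and stood at 0.950, 0.203 and 9.36 FPKM at 10 months. It was the only tested member whose age groups did not overlap, and its adjusted p was 0.393 (limma). Of all genes tested, 8.93% were apart in this direction and 8.88% in the other. Replicates 1 and 2 at 10 months were under 1 FPKM, so this separation rests on low estimates. Without replicate 3 the adjusted p was 0.487 (limma). Usp18, which removes Isg15 from its targets, stood at 1.30, 0.464 and 3.76 FPKM at 10 months and at 0.755, 0.661 and 1.22 at 2 months, with replicate 2 at 10 months below every 2-month library. Its fitted difference was 0.44 (limma adjusted p = 0.688), and -0.02 without replicate 3 at 10 months.

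Of the regulators, Irf7 moved with the effectors and the other regulators did not. Irf7 stood at 6.30, 3.50 and 11.8 FPKM at 10 months and at 2.28, 2.79 and 4.08 at 2 months (7.20 ± 4.21 against 3.05 ± 0.930, SD, n = 3 each). Its fitted difference was 0.91 ± 0.37 (SE; limma adjusted p = 0.333), and 0.53 without replicate 3 at 10 months. Irf1, an early target of both interferon gamma and inflammatory signals, had its highest value in replicate 2 at 10 months (90.5 FPKM), the 10-month library that was lowest in the effectors. Its other 10-month values were 45.4 and 45.4, and the 2-month values of 17.8, 40.1 and 69.6 spanned both of them (fitted difference 0.62, limma adjusted p = 0.606; 0.78 without replicate 3 at 10 months). Stat2 leaned lower at 10 months, at 8.98, 10.2 and 12.4 FPKM against 15.0, 12.5 and 12.2 at 2 months. Its replicates 1 and 2 at 10 months lay below every 2-month library and replicate 3 lay among them. The fitted difference was -0.31 (limma adjusted p = 0.406), and -0.42 without replicate 3 at 10 months.

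In all, 0 of the 8 tested members passed an adjusted p of 0.05, as did 0% of all 12412 genes (limma). At an unadjusted p under 0.05 there was 1 member, Irf7, beside 13.9% of all genes. The fitted difference was above 0 in 7 of the 8 tested members and in 5776 of all genes tested. The members' median was 1.08 (0.91 without Rsad2), and that of all genes was -0.02. The members' median depends on the constant added to FPKM, at 1.69 with 0.1 and 0.55 with 5. Ifit1, Ifit3 and Rsad2 reached the mean needed to be tested only through replicate 3 at 10 months, so these counts and medians do not support a difference. With that library left out and the same genes kept, the median was 0.57 and 6 of the 8 were above 0. Those 8 still include Ifit1, Ifit3 and Rsad2. With the filter also applied without that library, 5 members were tested, 3 were above 0 and their median was 0.53. Of all 12321 genes tested in that setting, 6082 were above 0.

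**Figure D2:**
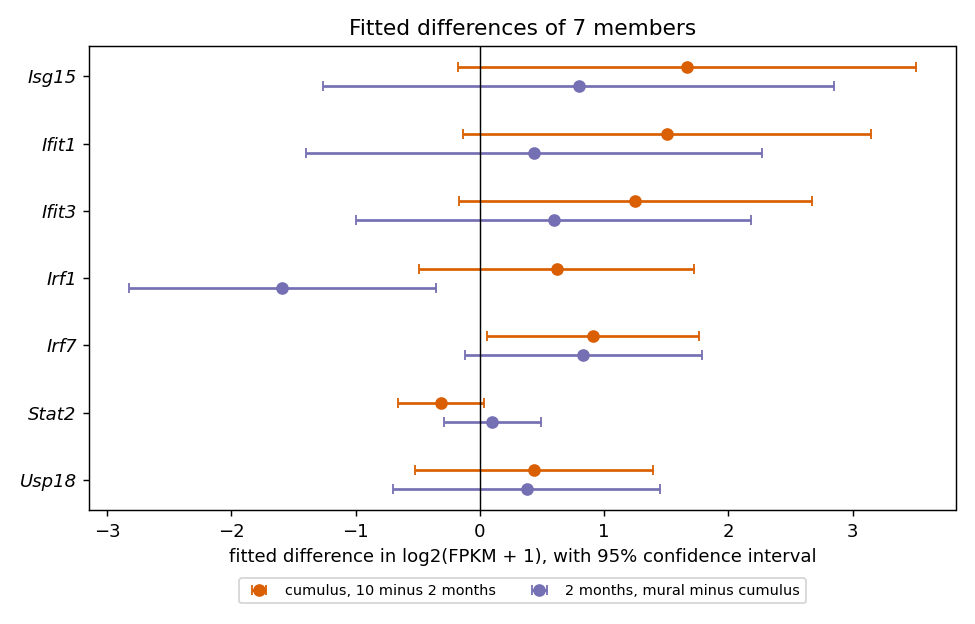
Fitted differences in log2(FPKM + 1) (horizontal axis) for 7 members (vertical axis), with points for the estimate and bars for the 95% confidence interval, for 10-month minus 2-month cumulus cells (orange) and for mural minus cumulus cells at 2 months (purple). Rsad2 is left out because it is listed at 0 in all 2-month cumulus libraries. The intervals of Irf7 for age and of Irf1 for mural cells exclude 0 before adjustment, and neither gene passed after it.

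Replicate by replicate, the members above every 2-month cumulus library numbered 6 of 9 in replicate 1 at 10 months, 2 in replicate 2 (Irf1 and Rsad2) and 7 in replicate 3. The shares of all tested genes were 30.8%, 23.8% and 28.8%. Of the 9, Ifit2 was not tested, and Ifit1, Ifit3 and Rsad2 were tested only through replicate 3. Among the other 5, Isg15, Irf7 and Usp18 lay above in replicates 1 and 3, and Irf1 in replicate 2. The level in replicate 3 at 10 months was described directly, with rules chosen after the values were seen and no test. In that library 7 of the 9 members had their highest value of the 10 libraries, against 8.35% of the 12412 tested genes. Rsad2 stood 9.86 times, Ifit3 5.70 times and Ifit1 5.09 times above the next highest library. Usp18 (2.40 times), Isg15 (2.12 times) and Ifit2 (2.08 times) were also at least 2-fold above it. Such an excess of at least 2-fold was found in 1.05% of tested genes. Since Ifit1, Ifit3 and Rsad2 are among the tested genes only through this library and Ifit2 is not among them, those shares compare with the 5 members that reach the mean without it. Of these 5, 3 were highest in replicate 3 (Isg15, Irf7 and Usp18) and 2 by at least 2-fold (Isg15 and Usp18). For Isg15, Ifit1, Ifit3 and Rsad2 the next highest library was replicate 1 at 10 months. For Irf7 and Usp18 it was a mural library.

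Markers of other cells moved in part with this level. Replicate 3 at 10 months had the highest immune marker median of all libraries (2.27), but replicate 2 was close to it (2.15) and above replicate 1 (1.40). The summed FPKM of the 14 immune markers was 26.4, 64.8 and 70.5 in replicates 1, 2 and 3 at 10 months, 5.0 to 8.58 at 2 months, and 23.5 and 60.2 in mural cells. The single markers differed in their order. Of the 14, 6 had their highest value of all libraries in replicate 3, and in 3 replicate 1 was above replicate 2, the order of most members. The macrophage genes C1qb (1.85, 11.2 and 6.88 FPKM in replicates 1, 2 and 3) and Lyz2 (6.91, 13.96 and 24.2) were lowest in replicate 1. The macrophage receptor gene Csf1r (0.68, 0.54 and 1.36) and the pan-leukocyte gene Ptprc (0.18, 0.14 and 0.55) were highest in replicate 3 and lowest in replicate 2, as Isg15 was. The T cell gene Cd3e had 0.15 FPKM in replicate 3 and was listed at 0 in the other 9 libraries. Theca and stroma markers had medians of 1.77, 1.57 and 2.62 at 10 months and 0.18 to 0.88 at 2 months. Mural libraries had mural medians of 7.16 and 7.49 and endothelial medians of 2.28 and 3.60. Surface epithelium markers had their highest median in replicate 3 at 10 months. The part of these cells in the members' values was not tested.

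**Figure D3:**
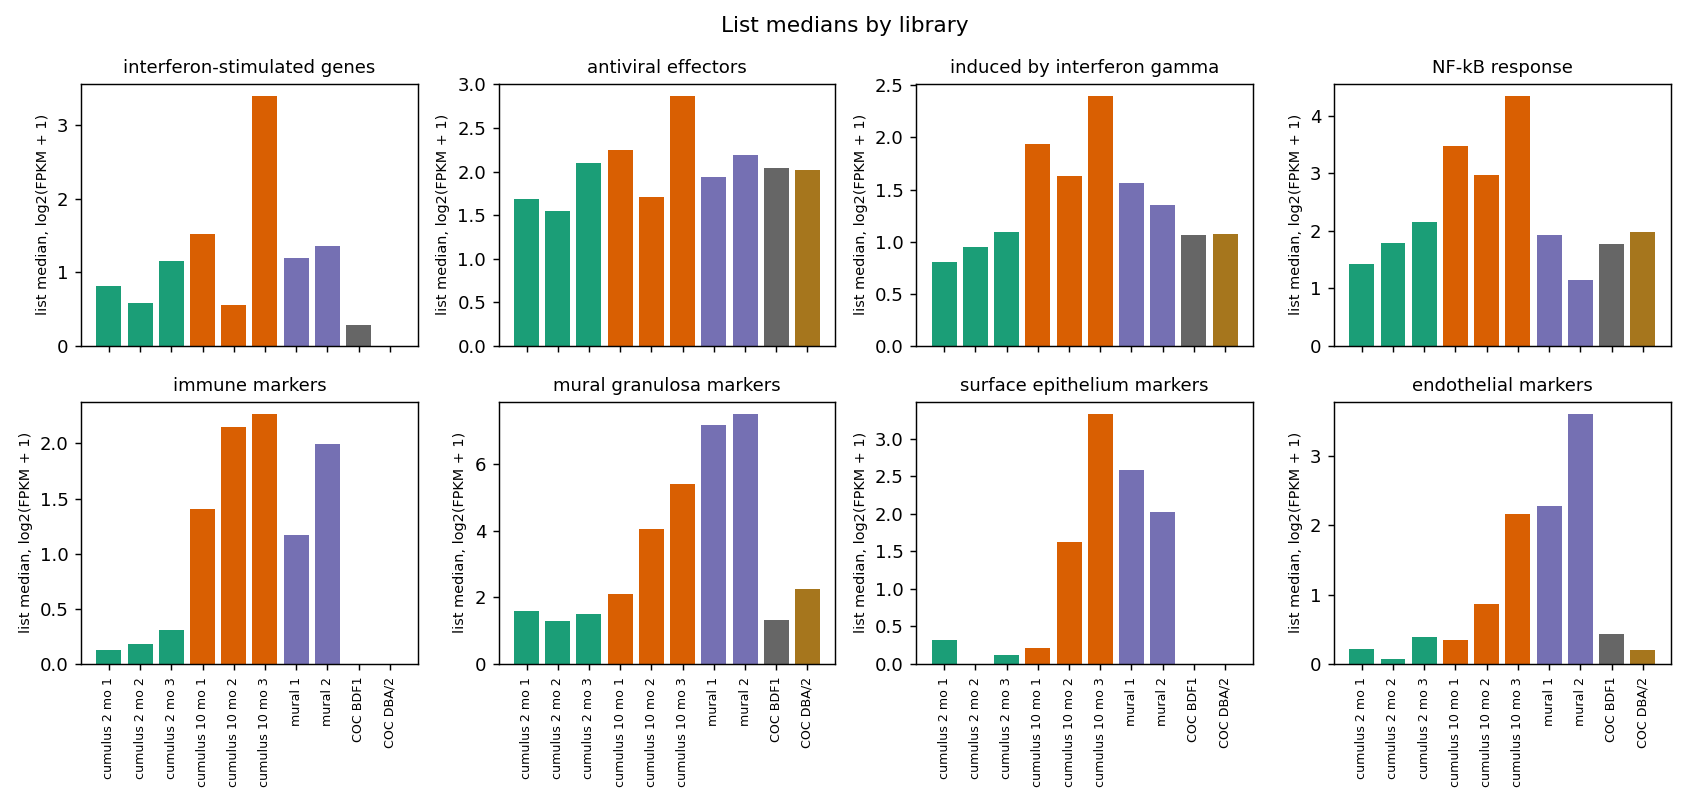
Median log2(FPKM + 1) of 8 gene lists (vertical axes, starting at 0) in each of the 10 libraries (bars, coloured by group). The interferon-stimulated genes peak in replicate 3 of cumulus cells at 10 months at 3.39, with 0.55 in replicate 2, whereas the immune markers are at 2.15 and 2.27 in those replicates 2 and 3.

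Other genes of the pathway were read from lists that hold the remaining steps. Of the 12 interferon genes in the table, 8 were listed at 0 in every library. Replicate 3 at 10 months had 0.65 FPKM of Ifnb1, the gene of interferon beta, and 0.18 of Ifng, which were listed at 0 in the other 9 libraries. Ifnk stood at 0.368 and 0.299 FPKM in replicates 1 and 3 at 10 months. Ifnz was listed at 0 in replicate 3 and reached 0.0721 FPKM in a mural library. Replicate 3 also had the fewest symbols listed at 0 of all libraries (6243). Of the 9 receptors and kinases, 8 stood at 1 FPKM or more in every library, with Jak1 at 118 ± 1.59 FPKM at 10 months and 168 ± 9.39 at 2 months (fitted difference -0.50, limma adjusted p = 0.197). Ifnar1 stood at 15.4 ± 0.140 and 17.0 ± 1.39, and Ifnar2 at 22.3 ± 3.50 and 19.5 ± 5.06 FPKM (SD, n = 3 each). Cumulus cells of both ages thus held receptor RNA, with no difference that passed.

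Irf9, the partner of Stat2 in the ISRE-binding complex, stood at 9.86, 12.7 and 17.3 FPKM at 10 months and 3.33, 5.33 and 10.8 at 2 months (limma adjusted p = 0.288). Among the RNA and DNA sensors and adaptors, Myd88 (14.2 ± 2.86 against 10.2 ± 1.77) had the smallest p (limma adjusted p = 0.366), and 0 of 8 tested passed. In the list of transducers and interferon regulatory factors 0 of 6 passed, and in the list of receptors and kinases 0 of 8.

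Antiviral effectors beyond the members had a median fitted difference of 0.35, with 20 of 25 tested genes above 0 and 0 passing. Without replicate 3 at 10 months these were 0.21 and 18 of 25 with the same genes kept, and 17 of 24 with the filter applied anew. Of all 31, 17 had their highest value in replicate 3 at 10 months, against 8.35% of all tested genes. In 25 of the 31 replicate 1 at 10 months was above replicate 2, the order of most members, against 52.1% of all tested genes. The 31 include effectors too low to be tested, so these shares are not of like sets. Rtp4, a chaperone for membrane receptors, stood at 6.13, 2.52 and 14.3 FPKM at 10 months and 1.59, 1.51 and 3.37 at 2 months. Ifitm3, which blocks viral entry at membranes, stood at 23.0, 22.1 and 53.8 against 15.8, 7.0 and 17.0, and Isg20, an exonuclease, at 2.64, 1.45 and 5.36 against 0.673, 1.21 and 0.725. In Ifitm3 and Isg20 the age groups did not overlap, yet their limma adjusted p values were 0.285 and 0.279.

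Genes that respond to interferon gamma had a median of 0.48, with 12 of 15 tested above 0 and 0 passing. Without replicate 3 at 10 months these were 0.33 and 11 of 15 with the same genes kept, and 0.29 and 10 of 14 with the filter applied anew. Gbp2, a guanylate-binding protein, stood at 6.14, 3.07 and 24.5 FPKM at 10 months and 0.75, 0.83 and 0.78 at 2 months (limma adjusted p = 0.215). Cxcl10, a chemokine that draws T cells, stood at 31.1, 10.8 and 21.0 against 0, 0.92 and 1.96 (limma adjusted p = 0.152). Unlike the members, Cxcl10 was higher in replicate 1 than in replicate 3. The immunity-related GTPase genes Irgm1 (16.3 ± 10.8 against 5.75 ± 1.26) and Igtp (5.37 ± 2.29 against 2.36 ± 0.398) also had groups that did not overlap, with adjusted p of 0.258 and 0.252 (limma).

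The list of NF-kB responsive genes, an inflammatory program that can also raise Irf1, was placed beside them. Of 14 tested, 14 had a fitted difference above 0, the median was 1.97 (1.57, with 13 of 14 above 0, without replicate 3 at 10 months), and 0 passed. In 13 of the 14 every 10-month library lay above every 2-month library, against 8.93% of all genes tested. Immune markers (8 of 9 tested) and theca and stroma markers (6 of 9) also had 10-month libraries all above the 2-month ones, and their part in these values was not tested. The filter's mean takes in the 10-month libraries, so these counts do not support a difference. Il6, listed at 0 in every 2-month cumulus and mural library, was tested only through replicate 3 at 10 months. Il1b, at 0.149 to 0.425 FPKM in those 2-month libraries, was tested only through the 10-month ones. With the filter also applied without replicate 3, 12 of 13 NF-kB genes were above 0 (median 1.69). Relb stood at 22.0, 6.83 and 22.8 FPKM at 10 months and 1.68, 1.56 and 2.23 at 2 months, and Ier3 at 220, 130 and 184 against 16.5, 38.1 and 43.9 (limma adjusted p = 0.152 for each). Replicate 2 at 10 months, which was near the 2-month level in Isg15 and Rsad2, was thus above the 2-month range in these genes. The feedback inhibitors had 0 of 9 tested past the threshold, with Socs3 at 33.5 ± 20.7 against 13.7 ± 7.56 FPKM. In the Isg15 conjugation list 0 of 4 passed, with Ube2l6, its conjugating enzyme, at 6.37 ± 1.89 against 4.15 ± 1.26.

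The second comparison describes how mural granulosa cells differ from cumulus cells at 2 months, with the same 2-month cumulus libraries as in the age comparison. Of the members, Irf1 was lower in both mural libraries and Irf7 was higher, while Stat2 lay within the cumulus range, and none passed the test. Irf1 stood at 12.7 and 10.6 FPKM in mural cells and at 17.8, 40.1 and 69.6 in cumulus cells, with no overlap. Its fitted difference was -1.59 ± 0.53 (SE; limma adjusted p = 0.0699). Without cumulus replicate 1 at 2 months it was -2.10 and passed (limma adjusted p = 0.0250), as did 1717 of 12468 genes. Irf7 stood at 5.36 and 6.90 FPKM against 2.28, 2.79 and 4.08, again with no overlap (fitted difference 0.83 ± 0.41, limma adjusted p = 0.186). With library weights both passed (limma adjusted p = 0.0178 for Irf7 and 0.00735 for Irf1), and so did 5425 of 12412 genes.

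The effectors differed by small amounts of FPKM between the compartments. Isg15 stood at 2.73 and 2.40 FPKM in mural cells, within the cumulus range of 0 to 3.17 (limma adjusted p = 0.560). Ifit3 stood at 0.839 and 0.951 FPKM, Usp18 at 1.28 and 1.57, and Rsad2 at 0.140 and 0.369, each above every 2-month cumulus library. Ifit1 (0.482 and 0.647) and Ifit2 (0.358 and 0.353) overlapped the cumulus range. These are small differences at low levels, and the adjusted p was 0.572 for Ifit3, 0.597 for Usp18 and 0.802 for Rsad2 (limma). The fit takes its spread from all 8 C57BL/6 libraries, the 10-month ones included. For Ifit3 the SD was 3.95 FPKM in 10-month cumulus, 0.132 in 2-month cumulus and 0.0789 in mural cells. These p-values thus carry spread from a group outside the comparison and do not show that the compartments are alike. Stat2 stood at 14.2 and 14.3 FPKM against 12.2 to 15.0.

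For this comparison 0 of the 8 tested members passed, beside 20.9% of all 12412 genes (9.69% higher and 11.2% lower; limma), and 1 had an unadjusted p under 0.05, beside 36.8%. The groups did not overlap in 4 members that were higher in mural cells and in 1 that was lower, beside 25.6% and 32% of all genes. The members' median was 0.41 (0.43 without Rsad2), against -0.08 for all genes, and it was 1.28 with 0.1 added to FPKM and 0.12 with 5. Ifit1, Ifit3 and Rsad2 were tested only through replicate 3 at 10 months, a library outside this comparison. Ifit3 and Rsad2 are among the 4 higher members, so these counts and medians do not support a difference. With only the compared groups in the filter and fit, 5 members were tested and their median was 0.38.

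In the 8 lists of other pathway genes, 18 of 89 tested genes passed (9 higher and 9 lower in mural cells), which is 20.2% and near the 20.9% of all genes. Genes that passed are given below as single results, and not all of them are named. Ube2l6, the conjugating enzyme for Isg15, was higher in mural cells at 9.36 ± 0.652 FPKM against 4.15 ± 1.26 (SD, n = 2 and n = 3; fitted difference 1.04, limma adjusted p = 0.0351), the 1 of 4 genes of its list that passed. Among receptors and kinases, 2 of 8 tested passed as higher (Il10rb, 22.0 ± 5.69 against 7.95 ± 0.486, and Tyk2, 7.15 ± 0.928 against 4.23 ± 0.142). Ifngr2, a chain of the interferon gamma receptor, passed as lower (26.7 ± 1.16 against 39.7 ± 5.40). The sensor-pathway kinase Ikbke was higher, at 5.43 ± 1.09 against 1.75 ± 0.261 (limma adjusted p = 0.0171), the 1 of 8 tested in its list.

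Of the antiviral effectors, 3 of 25 tested passed as higher and 3 as lower (median fitted difference 0.17), beside 9.69% and 11.2% of all genes. Lgals3bp (31.5 ± 4.92 against 13.3 ± 4.35) and Ifitm1 (4.26 ± 2.01 against 1.01 ± 0.460) were among the higher ones. Adar, which edits double-stranded RNA (10.7 ± 0.0349 against 17.4 ± 0.527), Oasl1 (0.366 ± 0.0997 against 2.83 ± 0.814) and Trim25, a ubiquitin ligase of the RNA sensor pathway (12.3 ± 0.704 against 19.6 ± 2.30), were lower. Of the genes induced by interferon gamma 1 of 15 passed, Nlrc5, an activator of class I antigen presentation genes, which was lower (1.84 ± 0.625 against 4.82 ± 1.18, limma adjusted p = 0.0195).

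NF-kB genes had 3 of 14 tested passing as lower and a median of -0.46. Nfkbia, the inhibitor that NF-kB itself induces, fell from 45.6 ± 10.4 to 17.0 ± 3.21 FPKM (limma adjusted p = 0.00790), Ier3 from 32.8 ± 14.4 to 8.82 ± 0.0995, and Cxcl1 from 15.1 ± 8.86 to 1.97 ± 1.35. Irf1 had the same direction in the mural libraries. Among feedback inhibitors Cish (19.9 ± 11.4 against 0.629 ± 0.0904) and Socs2 (400.2 ± 16.2 against 221 ± 26.9) were higher and the phosphatase gene Ptpn2 was lower (21.5 ± 0.0354 against 35.01 ± 3.32), 3 of 9 tested. The transducers and interferon regulatory factors had 0 of 6 past the threshold.

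Markers of other cells also differed in the mural libraries: 6 of 7 tested endothelial markers, 7 of 9 theca and stroma markers, 2 of 9 immune markers and 1 of 9 surface epithelium markers passed as higher. Their part in these values was not tested. The number of passing genes rested on single libraries, with 96 of 12361 tested without mural replicate 2 and 2599 of 12412 with it.

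The complexes of 3-week-old mice have 1 library per strain, so their values are given side by side with no test. Most effectors were at or near 0. Isg15, Ifit2, Rsad2 and Usp18 were listed at 0 in both complexes. Isg15 and Rsad2 were also listed at 0 in at least 1 cumulus library at 2 months, whereas Ifit2 and Usp18 were above 0 in all 8 C57BL/6 libraries. Zeros were more frequent in the complexes in general. Of the 23234 symbols, 8414 in BDF1 and 8440 in DBA/2 were listed at 0, against 6243 to 8194 in the C57BL/6 libraries. Ifit3 stood at 0.223 FPKM in BDF1 and was listed at 0 in DBA/2. Irf7 was the lowest of all libraries at 2.05 and 1.56 FPKM.

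Irf1 and Stat2, the most abundant members, were present in both complexes. Irf1 stood at 41.5 and 43.8 FPKM in BDF1 and DBA/2, inside the cumulus range at 2 months, and Stat2 at 10.5, below that range, and 13.4, inside it. On the log2(FPKM + 1) scale, Isg15 was the single member past a 2-fold difference from the 2-month cumulus mean (-1.04 in each strain), beside 3.49% of tested genes lower in BDF1 and 5.7% in DBA/2. None was 2-fold higher, beside 10.4% and 12.2%. Ifit1 stood at 0.328 and 1.17 FPKM, the second value above the 2-month cumulus range. Of its stretches of 50 transcript bases, 7.06% also occur in the related gene Ifit1bl2. Under its older symbol 2010002M12Rik, Ifit1bl2 stood at 13.6 and 10.7 FPKM in the complexes and 0.0655 to 5.51 in the other libraries. Its part in the Ifit1 value was not tested. Strain, age, priming and the presence of the oocyte differ together between the complexes and the cumulus cells and cannot be told apart.

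By group mean, the order of levels was 10-month cumulus, mural, then 2-month cumulus for Isg15, Ifit1, Ifit2, Ifit3, Irf7, Rsad2 and Usp18. Mural and 10-month values overlapped in each of these 7 genes, and the difference between these neighbours was not tested. The order rests on replicate 3 at 10 months for some: without it the 10-month mean was below the mural mean for Ifit3 (0.832 against 0.895 FPKM), Irf7 (4.90 against 6.13) and Usp18 (0.883 against 1.43), and Ifit2 was level (0.357 against 0.355). For Irf1 the order was 10-month cumulus, 2-month cumulus, mural, with the 2 cumulus groups overlapping. For Stat2 it was mural, 2-month cumulus, 10-month cumulus, with each neighbouring pair overlapping and mural above every 10-month library.

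The genes whose pattern was most like the mean standardised level of the 8 tested members were found over the 10 libraries by Pearson's r of log2(FPKM + 1), as a description. They were Kctd12 (r = 0.974), Parp14 (0.972), Gbp3 (0.963), Cd44 (0.960), Ncoa7 (0.960), Mnda (0.957), Sgtb (0.954) and Cd109 (0.953). Parp14 and Gbp3 were in the lists of interferon targets fixed here, and the others were in no list. Parp14 stood at 2.57, 1.34 and 5.15 FPKM at 10 months and 0.840, 0.911 and 1.54 at 2 months. Gbp3 stood at 3.12, 0.373 and 9.46 against 0.446, 0.425 and 0.523. The value of r without replicate 3 at 10 months was 0.963 for Parp14 and 0.958 for Gbp3, and 0.851 to 0.937 for the other 6 genes. Of these 6, Cd44, Mnda and Cd109 reached the mean needed to be tested only through that library. The same holds for Ifit1, Ifit3 and Rsad2 among the members, so the likeness is in part set by that library. Among the members themselves, Irf1 (r = 0.02) and Stat2 (r = -0.02) had no such likeness to the mean, and the other 6 tested members had r of 0.896 to 0.950, with a mean of which each is a part. Without replicate 3 at 10 months r was 0.607 for Ifit1 and 0.838 to 0.942 for the other 5.

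**Figure D4:**
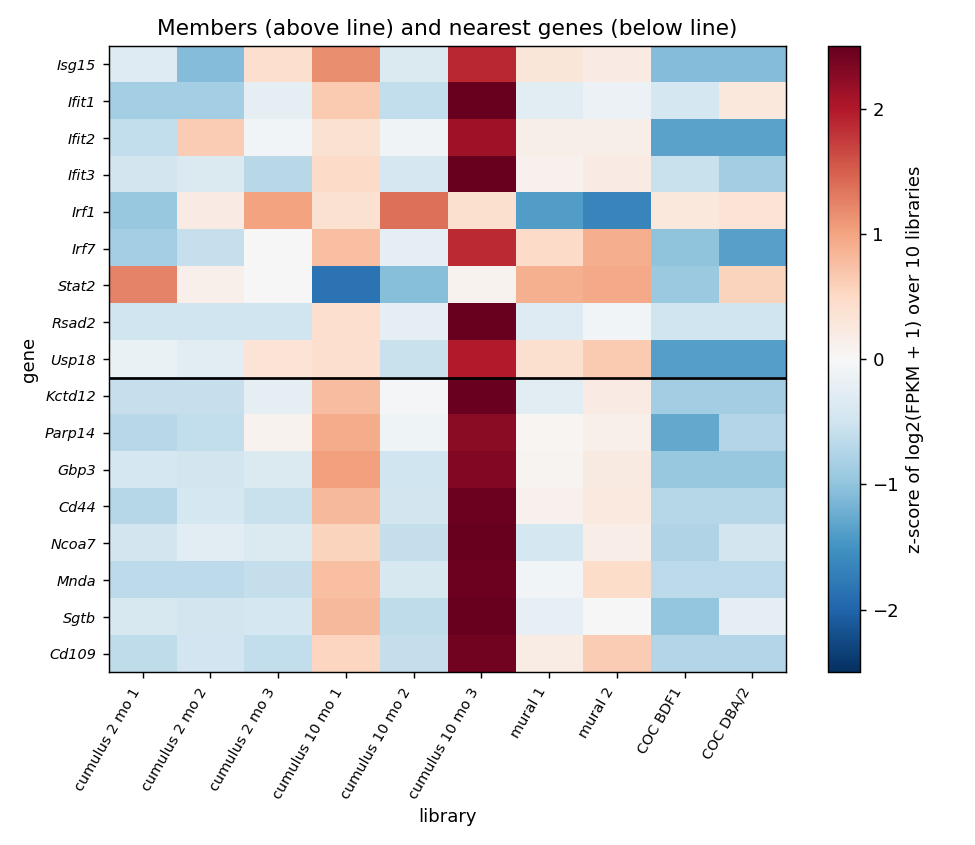
Log2(FPKM + 1) of the 9 members (above the line) and the 8 genes most like them (below the line) in 10 libraries (columns), each row scaled to its own mean and SD over the libraries (colour). Replicate 3 of cumulus cells at 10 months is red in all rows except Irf1 and Stat2, where it is pale, and replicate 1 at 10 months is the next reddest column for most effectors.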

How the data were processed

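The authors deposited a single table of FPKM. The submitters' processing notes name TopHat2 (2.1.0), Cufflinks (2.1.0) and mm9. Annotation, strand and read depth: not given in the sources used here. These FPKM are estimates, and whole reads were not recovered from them. A repeated header line (1) was dropped. Values were set to log2(FPKM + 1), on which fold changes of low genes are understated. The 8 C57BL/6 libraries were fitted with a term per group in limma (3.58.1, R 4.3.3; trended prior, 5 residual degrees of freedom), keeping the 12412 genes, 8 of the 9 members among them, that averaged 1 FPKM or more. P-values are two-sided and were adjusted by Benjamini and Hochberg's method over those genes, with a threshold of 0.05. The fit was tested on simulated data. Complexes (1 library a strain) were described by 2-fold differences.

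The members and lists were chosen with earlier results of these data known. All members are named, up to 4 genes per list with the smallest p are considered, as are all list genes that passed and the 8 genes of most similar pattern; not all are reported. C1qb, Ptprc, Cd3e, Ifnb1, Ifng, the Ifit relatives and other genes outside that rule were chosen after their values were seen. Promoters are from RefSeq (GRCm38.p6).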

Additional observations from a re-analysis of the deposited data

How the results depend on the processing

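Alternatives changed the pseudocount (0.1 or 5), the filter (none, or a mean FPKM of at least 5), the scaling, the samples fitted, library weights and single libraries. No member passed for age under any of them. The fitted age difference reversed in sign only for Usp18, which ranged from -0.022 to 0.83 when cumulus or mural replicates were left out one at a time. The value of -0.022 came without replicate 3 at 10 months, also with the same genes kept (an alternative chosen after seeing the data). For mural against cumulus cells, 1 of 8 tested members passed with the replicate block (Irf7), beside 3361 of 12412 genes. With library weights 2 of 8 passed (Irf1 and Irf7), beside 5425 of 12412 genes. When single cumulus libraries were left out, 0 to 1 passed. The 1 was Irf1, without cumulus replicate 1 at 2 months, beside 1717 of 12468 genes.

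The number of genes passing for age, 0 in the fit described, was 69 with library weights, 3 without replicate 3 at 10 months with the same genes kept, and 0 to 280 when single libraries were left out (280 without replicate 2 at 10 months, 3 to 9 without any other single cumulus library, 0 without a mural one). For mural cells, 2599 became 5425 with library weights and 96 to 3251 when single libraries were left out (mural replicates 2 and 1 gave 96 and 758 when left out, and 2-month cumulus replicates 2 and 1 gave 1208 and 1717). The cause was not tested. Rescaling to the same sum moved the median of all genes for mural cells from -0.08 to 0.11, and the share of calls that were higher from 46.3% to 64.0%. No member's direction in that contrast changed under any scaling.

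Same-numbered cumulus libraries had correlations of deviations of 0.01, 0.12 and 0.15 between ages, and same-numbered mural and cumulus libraries at 2 months of 0.03 and 0.21. The first is under 0.1, the other values between ages are above it, and the mural values rest on only 2 pairs. Differently numbered cumulus libraries had -0.14 to 0.04 between ages. These values do not settle whether the numbers are pairs. The main fit did not treat them as pairs, and the replicate block was an alternative. The replicate block left 0 genes for age and gave 3361 for mural cells. Depth is unknown, which limits values under 1 FPKM by an unknown amount.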

Other observations

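Oas1c and Birc3, chosen after their values were seen, belong to the antiviral effector and NF-kB lists and were highest in the complexes, as was the oocyte gene Gdf9. Oas1c, a member of the oligoadenylate synthetase family, stood at 145 and 134 FPKM in the BDF1 and DBA/2 complexes. The 2-month cumulus replicates 1, 2 and 3 had 8.69, 0.0995 and 44.0 FPKM of it, where Gdf9 stood at 54.4, 0.647 and 261. In mural replicates 1 and 2 Oas1c stood at 5.63 and 0.545, where Gdf9 stood at 30.6 and 3.07. Birc3, an inhibitor of apoptosis, stood at 59.7 and 74.3 FPKM in the complexes, against 3.34 to 22.7 in the other libraries, with its highest value outside the complexes in cumulus replicate 3 at 2 months, which was also the highest of those libraries in Gdf9. No test was made of these patterns.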
